A study of Mus musculus with 4 samples.

Results

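The complement system was examined as 37 genes taken by symbol from the deposited table, namely the components of its arms, their regulators and their receptors. All 37 had a row among the 21959 genes of the table, and 35 had enough reads to be tested among 12657 genes. The RNA came from 4 wild-type mouse livers under a model labelled ACLF, acute-on-chronic liver failure, a sudden failure of an already diseased liver. The treatment was saline for 2 livers and baicalein, a flavone from the root of Scutellaria, for the other 2. All 4 livers carried the injury, so both groups were compared within the disease, and no dose, time, age or sex is given in the labels. Nothing in the labels says whether the numbered livers are separate animals, so each p-value rests only on the spread among these samples, and that spread may be technical.

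Complement is a cascade of plasma proteins, most of them secreted by hepatocytes. The classical arm starts when C1q binds antibody, the lectin arm when mannose-binding lectins, ficolins and collectins bind sugars on microbes or dying cells, and the alternative arm amplifies C3 cleavage on surfaces that lack regulators. All arms converge on C3, and cleavage of C5 then begins assembly of C6, C7, C8 and C9 into the membrane attack complex, a pore that lyses cells.

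Library totals ran from 13976440 to 18731616 counts, at which 3 counts equal 0.150 to 0.219 CPM (counts scaled to a TMM-normalised library total of 1000000). The livers also differed in ways other than treatment. The 4 Y-linked genes Ddx3y, Kdm5d, Eif2s3y and Uty together had 820 and 836 counts in the saline livers against 2 and 1 in the baicalein livers, 8 of 9 listed male-biased liver genes fell and 10 of 10 female-biased genes rose. These are the levels of male livers with saline and of female livers with baicalein, although the labels give no sex. This pattern split the livers exactly as treatment did, and the 2 cannot be told apart in any comparison of baicalein with saline below. Skeletal muscle markers stood apart by liver and not by group, since 8 of them summed to 5121 CPM in saline 1 and 1554 CPM in baicalein 2 but to 1.24 and 0.756 CPM in saline 2 and baicalein 1. The defining markers of the labelled tissue were abundant in every liver, with 8 hepatocyte genes summing to 108710 and 105320 CPM with saline and to 143390 and 121460 CPM with baicalein. Of the 8, 2 were called higher and none lower, at a median log2 fold change of -0.03. Both baicalein livers lay above both saline livers for 2 of them and below for 3. Of 5 endothelial markers 4 rose and none fell, at a summed level of 227 and 202 CPM with saline and 318 and 331 CPM with baicalein, with none at 0, and their part in the genes that rose was not tested. In bulk tissue, fewer cells of a type and less RNA per cell cannot be told apart.

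The complement genes that changed did so in both directions. Most components of the membrane attack complex fell in baicalein livers, whereas the C1q chains, most lectin-arm recognition molecules, C3 and properdin rose, and no plasma regulator among the 37 passed the test. Of the 35 tested genes, 11 rose and 7 fell with baicalein at an adjusted p below 0.05 (edgeR quasi-likelihood test, Benjamini-Hochberg adjustment over all tested genes), and 17 did not pass. Over all tested genes 7.65% were called higher and 7.9% lower, or 15.5% together. At least 2-fold changes were called higher for 2 (Colec10 and Colec11) and lower for 4 (C6, C8a, C8b and C9), against 3.01% and 1.93% of all tested genes. Both baicalein livers lay above both saline livers for 13 of the 35 and below them for 13, against 29.7% and 29.5% of all tested genes. The median log2 fold change was 0.02 over the 35 genes and 0.01 over all genes tested, and the median absolute log2 fold change was 0.46 against 0.26. With a liver left out, which leaves fewer degrees of freedom, the genes called higher numbered 4 without saline 1, 2 without saline 2, 6 without baicalein 1 and 9 without baicalein 2, and those called lower 5, 5, 8 and 6. Calls over the whole table fell as well, from 1968 to between 1056 and 1328. C6, C8a, C8b, C9, Colec10 and Cfp were called in each of these fits, and none of the 18 called genes changed sign in any.

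**Figure D1:**
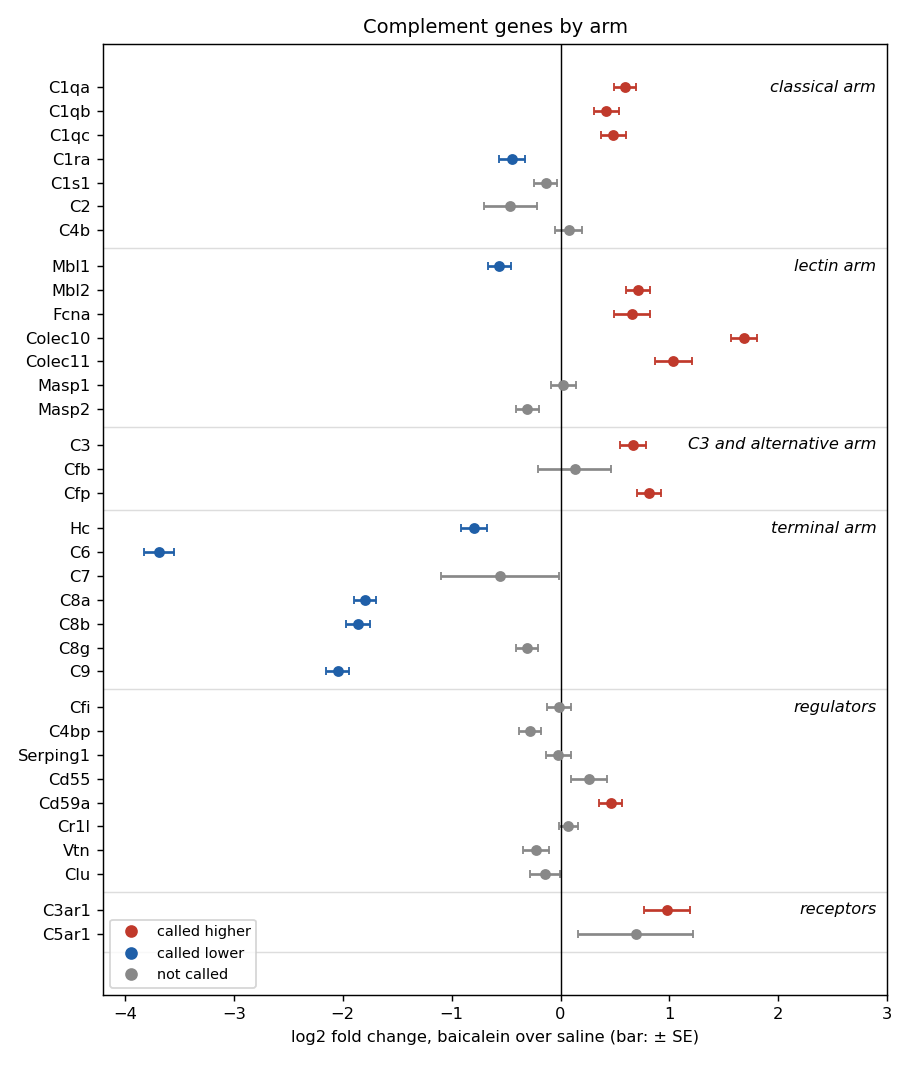
Log2 fold change of baicalein over saline (x axis, bars ± SE from the edgeR fit, n = 2 livers per group) for 34 tested complement genes grouped by arm (y axis). Red genes passed as higher, blue as lower and grey did not pass. Cfd, whose SE was 2.98, was left out for scale. The terminal arm lies left of 0, with C6 at -3.68, while C1q, Colec10, Colec11, C3 and Cfp lie right of it.

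The terminal arm held the largest changes. These genes encode C5 (Hc in mouse), which is cleaved to start the pore, C6 and C7, which bind to it in turn, the alpha, beta and gamma chains of C8, and C9, which polymerises into the pore wall. Of 7 tested genes 5 fell and none rose, and 4 of them fell at least 2-fold. The shares over all tested genes were 7.9% called lower and 1.93% called at least 2-fold lower. The median log2 fold change of the arm was -1.80. In mice, terminal complement activity is known to be higher in males, and these genes moved together with the Y-linked and male-biased genes above, whose part in the result cannot be told apart from that of treatment.

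C6 (ENSMUSG00000022181, chromosome 15, 4756657 to 4844449 in the table's coordinates, plus strand) had 456 and 365 CPM in the saline livers and 32.9 and 30.9 CPM in the baicalein livers. The groups did not overlap, and the lower saline liver was still far above both baicalein livers. The mean went from 411 ± 64.0 to 31.9 ± 1.42 CPM (SD, n = 2 each), and the log2 fold change was -3.68 (SE 0.14, edgeR adjusted p = 9.71e-07), or 12.9-fold lower. With a liver left out the log2 fold change stayed between -3.84 and -3.52.

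C9, on the same chromosome, had 672 and 760 CPM with saline and 174 and 172 CPM with baicalein. The baicalein livers nearly coincided while the saline livers differed somewhat, and the groups were well apart (log2 fold change -2.05, SE 0.11, edgeR adjusted p = 8.44e-06). C8b, the beta chain, had 770 and 787 CPM with saline and 228 and 200 CPM with baicalein (log2 fold change -1.86, SE 0.11, edgeR adjusted p = 1.65e-05). C8a, the alpha chain, had 932 and 993 CPM against 280 and 273 CPM (log2 fold change -1.80, SE 0.10, edgeR adjusted p = 1.35e-05). C8a and C8b are neighbours on chromosome 4, separated by 11130 bases with no listed gene between them and read on opposite strands, and their changes differed by less than their standard errors. The third chain, C8g, which lies on chromosome 2 and belongs to the lipocalin family, had 305 and 307 CPM with saline and 261 and 233 CPM with baicalein. It was lower in both baicalein livers but did not pass (log2 fold change -0.31, SE 0.10, edgeR adjusted p = 0.0801), although DESeq2 called it (adjusted p = 0.0126).

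Levels scaled by gene length (the deposited FPKM) show how this altered the order of the components within a liver. The level of C8b over that of C8g was 1.482 and 1.505 with saline and 0.513 and 0.502 with baicalein, and that of C8a over C8g was 1.26 and 1.33 against 0.441 and 0.481. The alpha and beta chains were therefore above the gamma chain in each saline liver and below it in each baicalein liver, while C8a over C8b lay at 0.848 and 0.883 against 0.861 and 0.958. By FPKM, C8b ranked first and C9 second of the 7 terminal genes in both saline livers, whereas C8g ranked first and C9 the fifth in both baicalein livers. C6 ranked sixth and C7 last in all 4.

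Hc, the C5 gene, fell by a smaller amount than C6, C8a, C8b and C9, though that difference was not tested. It had 910 and 820 CPM with saline and 461 and 537 CPM with baicalein, so the lower saline liver stayed above the higher baicalein liver. The log2 fold change was -0.79 (SE 0.12, edgeR adjusted p = 0.00261), and without saline 1 it just missed the threshold (adjusted p = 0.0528). With C3 higher and Hc lower, the length-scaled level of C3 over Hc, the successive substrates of the cascade, went from 12.2 and 13.8 with saline to 40.9 and 31.0 with baicalein. C7 was scarce in these livers, with 5.64 and 3.50 CPM against 1.65 and 4.54 CPM. Its groups overlapped and it did not pass (log2 fold change -0.55, SE 0.54, edgeR adjusted p = 0.571), and its value followed the muscle-marked livers, being higher in saline 1 and baicalein 2 than in the other liver of each group. The part of the admixed muscle in C7 was not tested.

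**Figure D2:**
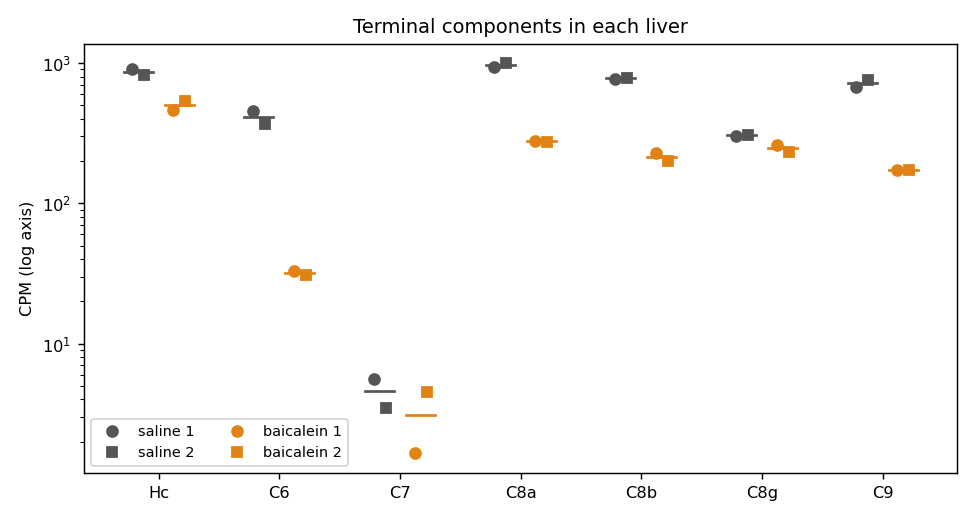
CPM of the 7 terminal-arm genes in each liver (y axis, log scale). Grey points are saline livers and orange points baicalein livers, circles replicate 1 and squares replicate 2, and the horizontal lines are group means (n = 2). C6 falls from 456 and 365 to 32.9 and 30.9 CPM, C8a, C8b and C9 fall together, and C7 overlaps between groups.

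C6, C7 and C9 lie within 1.72 Mb of chromosome 15, measured between the starts of C6 and C9 in the table's coordinates. The stretch between C6 and C9 holds 8 listed genes, of which 7 were tested. None of these was called lower, and 1, Ptger4, a prostaglandin receptor gene, was called higher (log2 fold change 2.12, SE 0.53, edgeR adjusted p = 0.0283). Without C7 and Ptger4 the others, among them the ribosomal protein gene Rpl37 (-0.04), the AMP-activated kinase gene Prkaa1 (0.05) and Dab2 (0.38), ranged from -0.22 for Ttc33 to 0.48 for Card6. The decrease was thus measured at both ends of the stretch and in no tested gene between them.

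**Figure D3:**
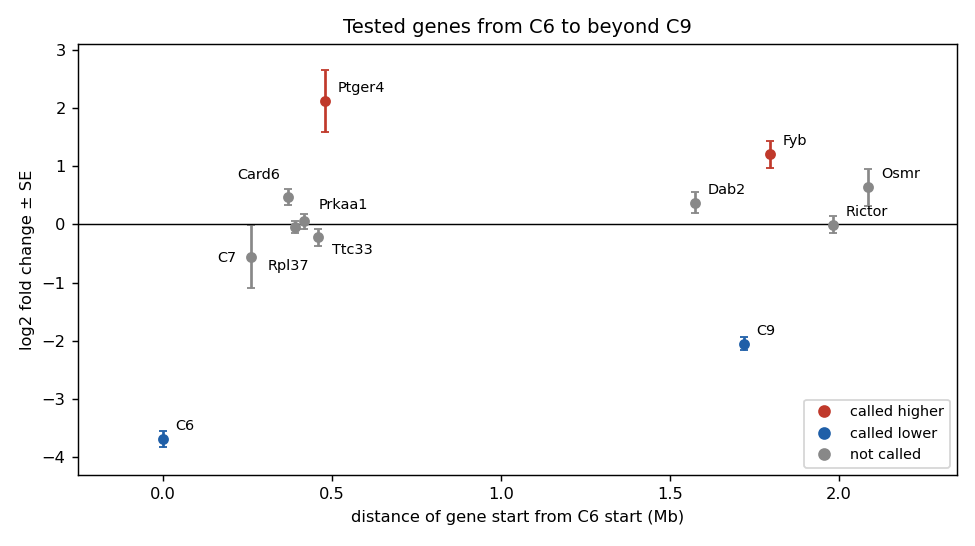
Log2 fold change of baicalein over saline (y axis, bars ± SE, n = 2 livers per group) against the distance of each tested gene's start from the start of C6 (x axis, Mb). Blue genes passed as lower, red as higher and grey did not pass. C6 at -3.68 and C9 at -2.05 are the only blue points, and the genes between them lie from -0.55 to 2.12.

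The promoters of the 5 terminal genes that fell are shown because these genes moved together. Each is the 250 bases before the gene's start from RefSeq on GRCm38.p6, read 5′ to 3′ on the gene's strand, and 28 of the 37 genes had an entry in that set. Capitals mark matches on either strand to the motifs searched, which were TTCNNNGAA (bound by STAT factors), CAAAGTCCA (HNF4), ATCAAT (ONECUT factors such as HNF6) and the HNF1 motif. The table's own positions match GRCm38 gene models for none of the 37 genes, so they and these coordinates were not joined.
C6 (chr15:4726960-4727209, plus strand): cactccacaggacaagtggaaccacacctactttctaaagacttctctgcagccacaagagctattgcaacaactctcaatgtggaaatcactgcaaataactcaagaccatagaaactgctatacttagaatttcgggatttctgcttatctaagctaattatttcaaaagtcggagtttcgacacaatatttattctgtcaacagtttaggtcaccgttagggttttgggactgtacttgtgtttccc
C9 (chr15:6445096-6445345, plus strand): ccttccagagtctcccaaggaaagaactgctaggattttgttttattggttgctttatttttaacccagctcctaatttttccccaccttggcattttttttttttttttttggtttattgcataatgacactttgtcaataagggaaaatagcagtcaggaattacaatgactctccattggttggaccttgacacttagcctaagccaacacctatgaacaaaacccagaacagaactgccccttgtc
C8a (chr4:104876399-104876648, minus strand): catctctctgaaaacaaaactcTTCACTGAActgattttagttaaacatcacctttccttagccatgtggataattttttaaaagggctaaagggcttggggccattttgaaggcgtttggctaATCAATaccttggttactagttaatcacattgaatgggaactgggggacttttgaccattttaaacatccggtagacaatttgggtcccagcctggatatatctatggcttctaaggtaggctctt
C8b (chr4:104766067-104766316, plus strand): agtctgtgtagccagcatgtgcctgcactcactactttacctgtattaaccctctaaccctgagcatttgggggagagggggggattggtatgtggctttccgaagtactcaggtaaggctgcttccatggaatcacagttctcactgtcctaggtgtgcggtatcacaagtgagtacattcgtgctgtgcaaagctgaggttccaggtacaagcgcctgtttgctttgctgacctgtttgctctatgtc
Hc (chr2:35061413-35061662, minus strand): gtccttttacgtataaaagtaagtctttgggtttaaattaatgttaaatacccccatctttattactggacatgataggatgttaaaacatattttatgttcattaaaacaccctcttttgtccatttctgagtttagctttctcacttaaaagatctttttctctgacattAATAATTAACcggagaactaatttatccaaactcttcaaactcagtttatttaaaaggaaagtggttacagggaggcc
The C8a window held TTCACTGAA, a STAT-type match beginning 228 bases before the start, and ATCAAT at 126 bases, while the Hc window held the HNF1-type match AATAATTAAC at 78 bases. The C6, C9 and C8b windows held none of the 4 motifs, so these letters were not shared by the genes that fell together. Of 32851 promoter windows of the same length, 7.02% held TTCNNNGAA, 6.72% ATCAAT, 0.384% CAAAGTCCA and 0.371% the HNF1 motif. The motif matches did not overlap each other. A match is a run of letters and says nothing of whether a factor was bound.

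In the classical arm 3 genes rose, 1 fell and 3 did not pass, against 7.65% of all tested genes called higher and 7.9% lower. C1qa, C1qb and C1qc, which encode the chains of C1q and are expressed by macrophages, including the Kupffer cells of liver, all rose, while C1ra, a protease bound to C1q, fell. C1qa had 55.3 and 53.6 CPM with saline and 87.7 and 76.5 CPM with baicalein, with no overlap between the groups (log2 fold change 0.59, SE 0.10, edgeR adjusted p = 0.00506). C1qc had 49.6 and 46.7 CPM with saline and 74.2 and 60.7 CPM with baicalein, a rise of 0.49 on the log2 scale (SE 0.11, edgeR adjusted p = 0.0215). C1qb had 58.8 and 54.8 CPM against 83.3 and 68.9 CPM, a rise of 0.42 (SE 0.11, edgeR adjusted p = 0.0377). For all of these chains both baicalein livers were above both saline livers. The genes lie side by side on chromosome 4, 2851 and 3616 bases apart on 1 strand, and by FPKM C1qb over C1qc lay between 1.99 and 2.11 in all 4 livers, while C1qa over C1qb was 0.983 and 1.02 with saline and 1.10 and 1.16 with baicalein. C1qa was not called without saline 2 (adjusted p = 0.0503), and C1qb and C1qc were not called in the fits lacking saline 1, saline 2 or baicalein 1, where the adjusted p reached 0.251 and 0.177.

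Of 8 markers of Kupffer cells and macrophages 7 rose and none fell, and their summed level was 493 and 420 CPM with saline and 855 and 734 CPM with baicalein, with none of the 8 at 0. C1q summed to 164 and 155 CPM with saline and 245 and 206 CPM with baicalein. The part of macrophage number in the rise of C1q was not tested.

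C1ra had 390 and 427 CPM with saline and 329 and 271 CPM with baicalein. Both baicalein livers were below both saline livers, and the log2 fold change was -0.45 (SE 0.12, edgeR adjusted p = 0.0403), which no longer passed in the fits lacking saline 1, saline 2 or baicalein 2, where the adjusted p reached 0.346. Its partner protease C1s1, 6901 bases away on chromosome 6, was at 370 ± 18.6 and 336 ± 19.4 CPM (SD, n = 2 each) and did not pass (edgeR adjusted p = 0.428). C4b, the C4 gene and by FPKM the most abundant of this arm, was at 1772 and 1710 CPM with saline and 2016 and 1650 CPM with baicalein. The baicalein livers lay on both sides of the saline livers (log2 fold change 0.07, SE 0.12, edgeR adjusted p = 0.749). C2, the protease that pairs with C4, was at 13.4 ± 0.477 and 9.78 ± 3.39 CPM (SD, n = 2 each) and did not pass either (edgeR adjusted p = 0.266).

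In the lectin arm 5 recognition molecules changed, 4 of them upwards, and neither protease passed. Of 7 tested genes 4 rose (Colec10, Colec11, Mbl2 and Fcna), 1 fell (Mbl1) and 2 did not pass (Masp1 and Masp2). The shares over all tested genes were 7.65% called higher and 7.9% lower. Colec10, encoding collectin liver 1, had 10.6 and 9.70 CPM with saline and 32.2 and 33.0 CPM with baicalein. Replicates agreed closely within each group, and the rise was the largest of all complement genes tested (log2 fold change 1.68, SE 0.12, edgeR adjusted p = 5.11e-05). Colec11, encoding collectin kidney 1, with which collectin liver 1 forms a mixed complex, had 24.5 and 21.9 CPM with saline against 55.4 and 39.9 CPM with baicalein. The baicalein livers were farther apart here but still above both saline livers (log2 fold change 1.04, SE 0.17, edgeR adjusted p = 0.0133), and Colec11 lost its call when either saline liver was left out (adjusted p up to 0.159). Both collectin genes are expressed by hepatic stellate cells in mouse liver. Of 6 markers of stellate cells and fibroblasts 4 rose (Lrat, Dcn, Reln and Pdgfrb) and none was called lower. The other 2, Col1a1 and Col3a1, did not pass, and the lowest log2 fold change in the list was -0.32. The 6 summed to 439 and 234 CPM with saline and 484 and 668 CPM with baicalein, with none at 0. The part of these cells in the collectin result was not tested.

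The mannose-binding lectins, which hepatocytes secrete, went opposite ways. Mbl2, encoding MBL-C, had 407 and 379 CPM with saline and 692 and 593 CPM with baicalein, a log2 fold change of 0.71 (SE 0.11, edgeR adjusted p = 0.00381). Mbl1, encoding MBL-A, had 262 and 278 CPM with saline and 193 and 172 CPM with baicalein, a log2 fold change of -0.56 (SE 0.11, edgeR adjusted p = 0.00800). The groups were apart for both genes, and the length-scaled level of Mbl2 over Mbl1 was 2.24 and 1.97 in the saline livers and 5.16 and 4.97 in the baicalein livers. Mbl2 was not called with either saline liver left out (adjusted p up to 0.120), nor Mbl1 without saline 2 (adjusted p = 0.117).

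Fcna, encoding ficolin A, a lectin made by macrophages, had 15.8 and 12.1 CPM with saline and 24.2 and 19.9 CPM with baicalein. It rose by 0.66 on the log2 scale (SE 0.17, edgeR adjusted p = 0.0301), though not without saline 2, baicalein 1 or baicalein 2 (adjusted p up to 0.197) or with DESeq2 (adjusted p = 0.057). Fcnb, encoding ficolin B of granulocytes and monocytes, had 1 count over the 4 livers and was not tested. Neutrophil markers were also scarce, and 6 of them summed to 1.45 to 6.60 CPM in the 4 livers. Of the proteases that the lectins carry, Masp1 was at 279 ± 3.32 and 284 ± 36.1 CPM and Masp2 at 151 ± 4.39 and 123 ± 11.7 CPM (SD, n = 2 each), and neither passed (edgeR adjusted p = 0.916 and 0.0874).

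**Figure D4:**
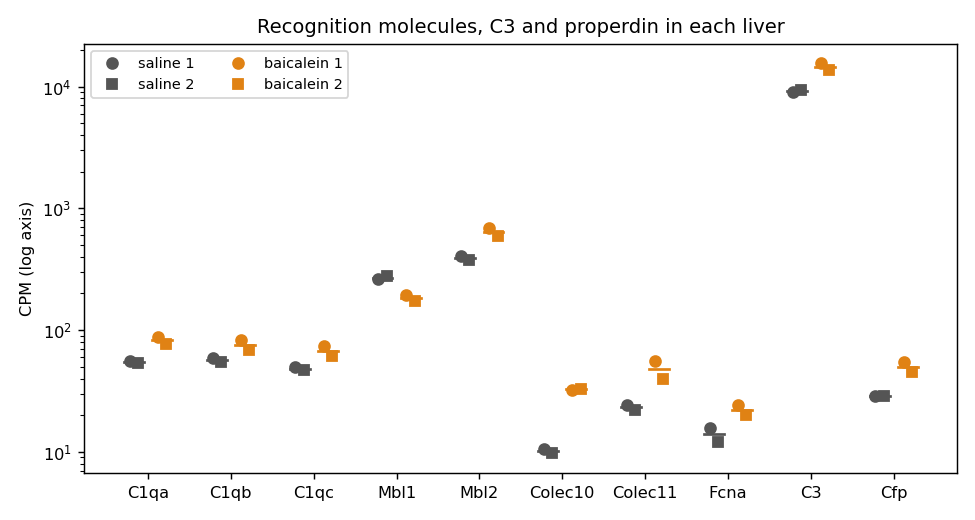
CPM of 8 recognition genes of the classical and lectin arms, of C3 and of Cfp in each liver (y axis, log scale). Grey points are saline livers and orange points baicalein livers, circles replicate 1 and squares replicate 2, and the lines are group means (n = 2). Mbl1 is the gene that is lower with baicalein, and the other 9 are higher without overlap.

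C3, the hub of all arms and by FPKM the most abundant of the 37 genes in every liver, rose. It had 9101 and 9311 CPM with saline and 15491 and 13692 CPM with baicalein, or 9206 ± 148 against 14592 ± 1272 CPM (SD, n = 2 each). The saline livers were close together and both baicalein livers lay well above them (log2 fold change 0.66, SE 0.12, edgeR adjusted p = 0.00656), and the call was lost with either saline liver left out (adjusted p up to 0.274). With C3 included, the 37 genes together took a larger share of all counts with baicalein (2.82% and 2.76%) than with saline (2.42% and 2.43%). The other 36 took 1.55% and 1.52% with saline and 1.29% in each baicalein liver. C3 is an acute-phase gene, and of 10 other acute-phase genes 3 rose (Itih4, Lbp and Orm2) and 4 fell (Orm1, Saa1, Saa2 and Saa3).

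Cfp, encoding properdin, which myeloid cells make and which stabilises the C3-cleaving enzyme of the alternative arm, had 28.5 and 28.6 CPM with saline and 54.7 and 45.6 CPM with baicalein. It rose in both baicalein livers (log2 fold change 0.81, SE 0.11, edgeR adjusted p = 0.00175), beside the rise of 7 of 8 macrophage markers given above, whose part in it was not tested. Cfb, encoding factor B, had 33 to 58 counts per liver and did not pass (edgeR adjusted p = 0.845). Cfb and C2 lie 85 bases apart on chromosome 17 and both overlap Gm20547, a gene on their strand that had 0 counts in all 4 livers. The sources used here do not say how reads in overlapping genes were counted, so the levels of Cfb and C2 are uncertain.

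Cfd, encoding factor D, the protease that activates factor B and a product of fat cells known as adipsin, followed the individual livers. It had 113 and 3 counts in the saline livers and 0 and 139 in the baicalein livers. The high values were in saline 1 and baicalein 2, the livers with skeletal muscle RNA, and the groups overlapped wholly (log2 fold change 0.02, SE 2.98, edgeR adjusted p = 0.997). It was not called with any liver left out. The 5 adipocyte markers summed to 9.93 CPM in saline 1 and 8.93 CPM in baicalein 2 against 2.99 CPM in saline 2 and 1.24 CPM in baicalein 1, and Adipoq, a defining fat-cell gene, had 0 counts in saline 2 and baicalein 1. Not every marker followed this split. Of the 3 tested none passed, and 1 was lower in both baicalein livers than in both saline livers. The part of admixed fat and muscle in Cfd was not tested.

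**Figure D5:**
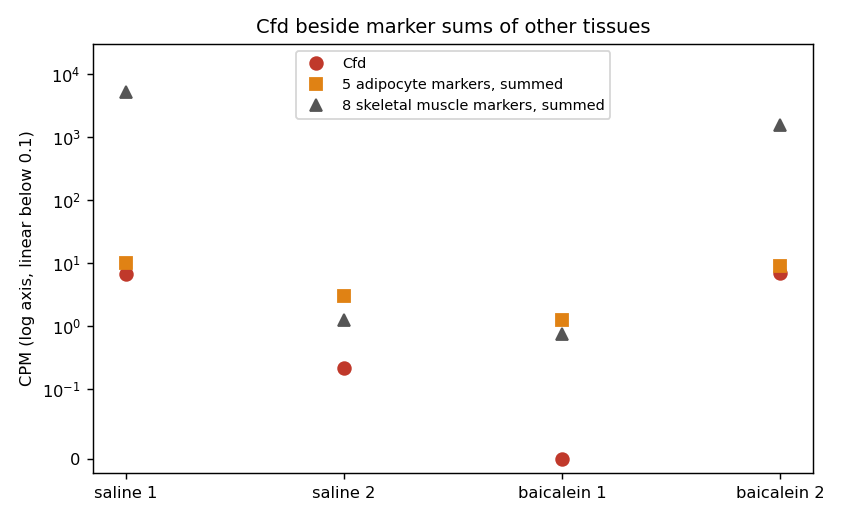
CPM of Cfd, of 5 adipocyte markers summed and of 8 skeletal muscle markers summed in each of the 4 livers (x axis), on a log scale that is linear below 0.1 (y axis). Each point is a single library. All of them are high in saline 1 and baicalein 2 and low in saline 2 and baicalein 1, where Cfd was at 0.219 and 0 CPM.

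The regulators limit complement on host cells and in plasma. Of 8 tested genes 1 rose, none fell and 7 did not pass, and the arm's median log2 fold change was -0.02. This count of calls is near the 15.5% called over all tested genes, so it does not set the regulators apart from other genes. Cd59a, encoding a membrane protein that blocks insertion of C9 into the pore, had 46.3 and 44.1 CPM with saline and 67.3 and 56.9 CPM with baicalein. It was higher in both baicalein livers (log2 fold change 0.46, SE 0.11, edgeR adjusted p = 0.0206), but was not called in the fits lacking saline 1, saline 2 or baicalein 1, where the adjusted p reached 0.153. The endothelial markers given above moved in the same direction. So did 7 of 8 macrophage markers and 4 of 6 markers of stellate cells and fibroblasts, with none called lower. The part of any cell type in Cd59a was not tested. Vtn, encoding vitronectin, which binds the forming pore in plasma and is by FPKM the most abundant regulator here, had 3502 and 3263 CPM with saline and 3136 and 2656 CPM with baicalein (log2 fold change -0.22, SE 0.12, edgeR adjusted p = 0.260). It passed only without baicalein 1 (adjusted p = 0.0374).

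Clu, encoding clusterin, the other plasma inhibitor of the pore, was at 1891 ± 118 and 1716 ± 310 CPM (SD, n = 2 each) with overlapping groups. Serping1, encoding the C1 inhibitor, was at 974 ± 50.9 and 958 ± 104 CPM, and Cfi, encoding factor I, the protease that inactivates C3b and C4b, at 727 ± 11.4 and 720 ± 68.0 CPM (SD, n = 2 each). C4bp, whose product is the plasma cofactor of factor I for C4b, was at 766 ± 34.7 and 629 ± 27.5 CPM (SD, n = 2 each), apart between the groups but short of the threshold (log2 fold change -0.28, SE 0.10, edgeR adjusted p = 0.09997), although DESeq2 called it (adjusted p = 0.00599). The membrane regulators Cd55 and Cr1l were at 8.08 ± 0.123 and 9.68 ± 0.562 CPM and at 64.3 ± 1.15 and 67.5 ± 0.0522 CPM (SD, n = 2 each), and neither passed (edgeR adjusted p = 0.350 and 0.653). Cd46, 5132 bases from Cr1l on chromosome 1, had 3 to 9 counts per liver and was not tested.

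Of the receptors, C3ar1, which encodes the receptor for the C3a fragment, rose at a low level. It had 4.29 and 4.23 CPM with saline and 8.73 and 8.08 CPM with baicalein, close together within each group (log2 fold change 0.98, SE 0.21, edgeR adjusted p = 0.0157). Leaving out any single liver ended the call (adjusted p up to 0.109). C5ar1, which encodes the main receptor for C5a, had 11 to 42 counts per liver with overlapping groups (edgeR adjusted p = 0.437).

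Further genes of the pathway were taken from a list of 27, of which 26 had a row and 21 were tested. Of these 3 rose, 3 fell and 15 did not pass, against 7.65% of all tested genes called higher and 7.9% lower. Those that rose are expressed by myeloid cells. Vsig4, the complement receptor of Kupffer cells and also among the 8 macrophage markers above, had 27.5 and 22.6 CPM with saline and 60.9 and 47.6 CPM with baicalein (log2 fold change 1.11, SE 0.15, edgeR adjusted p = 0.00529). C5ar2, the second C5a receptor, had 2.70 and 2.63 CPM with saline and 7.22 and 5.89 CPM with baicalein (log2 fold change 1.29, SE 0.26, edgeR adjusted p = 0.0119). Itgb2, the beta chain of complement receptors CR3 and CR4, had 13.1 and 14.0 CPM against 20.9 and 21.0 CPM (log2 fold change 0.63, SE 0.12, edgeR adjusted p = 0.00964). The groups did not overlap for any of these genes. C5ar2 lost its call in the fits lacking saline 1, saline 2 or baicalein 1 and Itgb2 in those lacking saline 1, baicalein 1 or baicalein 2, where the adjusted p reached 0.103 and 0.0707.

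Susd4 and C1qbp were among those that fell. Susd4, a membrane protein gene whose product can inhibit complement, had 19.5 and 15.8 CPM with saline and 1.99 and 2.49 CPM with baicalein. The gap between the groups far exceeded that between replicates, and the log2 fold change of -2.96 (SE 0.20, edgeR adjusted p = 4.35e-05) was the largest in this list. C1qbp, encoding a mitochondrial protein that can bind the heads of C1q, had 91.5 and 89.6 CPM against 62.8 and 58.0 CPM and fell by 0.58 on the log2 scale (SE 0.09, edgeR adjusted p = 0.00388). The pentraxins Crp and Apcs did not pass. Neither did Cpn1, Cpn2 and Cpb2, genes of the carboxypeptidases that act on C3a and C5a.

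Some of these genes have close copies whose reads the counting may have split or merged. These are C4b with C4a (listed, but without a row under that symbol), C1ra with C1rb, C1s1 with C1s2, Cd59a with Cd59b and Cd55 with Cd55b. The copies in the table were scarce, at most 0.948 CPM for C1rb and 0.365 CPM for C1s2 in any liver and 0 counts for Cd55b, with Cd59b at 3.23 to 4.64 CPM. Masp1, Masp2, C8g, C8a and C2 overlap a gene on the other strand (Rtp4, Tardbp, Fbxw5, Gm17662 and Zbtb12), and the sources used here do not say whether reads were counted by strand. Without strand, reads of such a pair cannot be told apart. For C8a the overlapping gene had at most 9 counts in a liver. Tardbp had 969 to 1267 counts per liver beside 1904 to 2629 for Masp2, and Zbtb12 43 to 75 beside 148 to 223 for C2. Fbxw5 had 537 to 752 beside 3794 to 5181 for C8g, the denominator of the C8 ratios above. Rtp4 had 305 to 518 beside 3856 to 5179 for Masp1.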

How the data were processed

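Libraries were made from total liver RNA with a SMARTer kit, per the labels' protocols. The build named in the submitters' processing notes is mm10, and no source used here names the aligner or counter. The authors deposited 1 table with a whole-number read count and an FPKM (scaled by library total and gene length) for each gene in each liver. The table's positions match GENCODE M21 (mm10) gene models for 0 of the 37 genes and are printed as given. Counts and FPKM of the 37 genes agreed within 0.00387%, while 3 other genes of the table were apart by more than 1%. The 51 rows without a symbol were kept in the fit.

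The test was edgeR's robust quasi-likelihood F test (version 4.0.16, R 4.3.3), two-sided and without covariates, on 2 against 2 livers after filterByExpr and TMM scaling. Its p-values were adjusted by Benjamini-Hochberg over the 12657 genes that passed the filter, and the threshold was 0.05. The SE is the log2 fold change divided by the root of its F value. An exact permutation test of 2 against 2 livers cannot go below 0.333. The livers of a group were checked for a library deposited more than once, and their counts differed by more than sampling noise (chi-square per degree of freedom 23.4 and 18.7), which does not show that they are separate animals. On simulated data of 12484 genes the fit called 76.9% of those changed by a log2 fold of 2, 11.2% of those changed by 1 and 0.057% of unchanged ones. Every gene was simulated at the common dispersion (biological coefficient of variation 0.289). These rates therefore do not describe genes with a smaller spread, such as C1qa with an SE of 0.10. All 37 genes are accounted for, those past the threshold or most abundant in their arm by the value of each liver. Of the other pathway genes those past the threshold are given in full, except for a result that is not reported here. The genes and lists were chosen with earlier results of these data known. Alternatives were median-of-ratios size factors, DESeq2 1.42.0, limma-voom (limma 3.58.1), no low-count filter, a mean CPM of at least 1, a replicate block and each liver left out.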

Additional observations from a re-analysis of the deposited data

How the results depend on the processing

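Under median-of-ratios size factors, DESeq2, limma-voom, no low-count filter and a mean CPM of at least 1, the complement genes called higher numbered 10 or 11 and those called lower 7 to 9. With each liver left out in turn, all genes called ranged from 1056 to 1328, complement genes called higher from 2 to 9 and lower from 5 to 8, and other pathway genes called higher from 1 to 3 and lower from 2 to 3. These fits have fewer samples. Whether the replicate numbers pair the livers is not known. Same-numbered deviations correlated at -0.77 and crossed ones at 0.77. With 2 livers per group these values are always opposite, so they cannot decide the pairing. With the replicate number as a block all genes called numbered 1132, with 9 complement genes higher and 6 lower. Among the calls that the block ended were those of C1qb (edgeR adjusted p = 0.0649), C1ra (0.117), C3ar1 (0.0639) and C5ar2 (0.0547). With crossed pairs (saline 1 with baicalein 2), added after seeing the data, all genes called numbered 3498, with 11 complement genes higher and 10 lower, and other pathway genes called higher numbered 5. These pairs also place the 2 livers with skeletal muscle RNA in the same block. The part of that RNA in these counts was not tested.

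Of the 37 genes 7 changed sign in some alternative, none of them called. With a liver left out the log2 fold change ranged from -0.089 to 0.21 for C4b, -0.12 to 0.15 for Masp1, -0.079 to 0.37 for Cfb, -0.13 to 0.083 for Cfi, -0.15 to 0.087 for Serping1, -0.33 to 0.021 for Clu and -8.71 to 3.94 for Cfd, the last from fits with 0 or 3 counts as all that remained of a group. Cfd was at -1.16 with limma-voom, -0.53 with the block and -0.094 with crossed pairs. The cause was not tested. Cfb, C7 and C5ar1, with at most 58, 96 and 42 counts in a liver, had standard errors of 0.34, 0.54 and 0.53 on the log2 scale, and how much of this was counting error was not tested.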
